A study of Mus musculus with 2 samples.

Results

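Of 32285 genes in the deposited matrices, the 10 described here encode calmodulin-dependent protein kinases of mouse hippocampal Cajal-Retzius (CR) cells and their upstream kinases. They were found by gene symbol and were chosen by the knockout over control levels already known for these libraries, Camk1d among them, so the ratios between the genotypes are given as a description and carry no test. CR cells are early-born neurons that secrete reelin. Hippocampi of mice at postnatal day 14 were dissected, and cells expressing the red reporter tdTomato were sorted and sequenced by droplet single-cell RNA-sequencing. For the control library, 4 littermates (3 male, 1 female) of the conditional heterozygous genotype ΔNp73-Cre; Cic flox/+; tdT were pooled. The knockout library pooled 4 littermates (2 male, 2 female) that were ΔNp73-Cre; Cic flox/flox; tdT. Both groups therefore carried the Cre, which the ΔNp73 promoter drives in CR progenitors, the reporter and at least 1 floxed allele of Cic, the gene of the transcriptional repressor capicua (CIC). Each genotype had 1 library, so no replicate stood behind any difference between them, and the intervals given are exact 95% intervals that cover counting error only.

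Calmodulin-dependent kinases read the calcium signal in neurons: calcium binds calmodulin, and the complex opens the autoinhibited kinase. CaMKI (here Camk1, Camk1d and Camk1g) and CaMKIV (Camk4) reach full activity only when an upstream kinase, CaMKK1 or CaMKK2, phosphorylates their activation loop. CaMKII (Camk2a, Camk2b, Camk2d, Camk2g) instead forms a holoenzyme of many subunits that phosphorylate each other and is known for its part in synaptic plasticity. CaMKI acts mostly in the cytoplasm on axon and dendrite growth, CaMKIV in the nucleus on CREB.

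Camk1d held the only ratio of the kinases past 1.5-fold with at least 100 unique molecular identifiers (UMIs, tags that count each captured molecule once), and Camk1 the only matched promoter window with one of the octamers that CIC binds, so the windows of these genes are printed. They run from 250 bases before to 50 bases after a transcription start on GRCm38.p6 (RefSeq), on the minus strand, 5′ to 3′, and capitals mark an octamer. TGAATGAA, TGAATGGA, TCAATGAA and TCAATGGA were searched on both strands.
Camk1d, first start, chr2:5714713-5715012: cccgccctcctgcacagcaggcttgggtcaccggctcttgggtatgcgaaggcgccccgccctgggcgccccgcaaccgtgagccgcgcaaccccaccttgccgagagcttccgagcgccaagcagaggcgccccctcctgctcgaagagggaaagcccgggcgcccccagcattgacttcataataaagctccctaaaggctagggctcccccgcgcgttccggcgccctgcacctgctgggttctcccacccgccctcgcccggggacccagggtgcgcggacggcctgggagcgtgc
Camk1d, second start, chr2:5675997-5676296: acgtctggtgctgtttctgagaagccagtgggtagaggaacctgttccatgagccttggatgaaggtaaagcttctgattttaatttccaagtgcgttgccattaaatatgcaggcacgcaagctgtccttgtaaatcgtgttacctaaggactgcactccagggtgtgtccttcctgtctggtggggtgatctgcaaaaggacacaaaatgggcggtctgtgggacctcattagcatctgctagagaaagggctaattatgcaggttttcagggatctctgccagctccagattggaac
Camk1, chr6:113343873-113344172: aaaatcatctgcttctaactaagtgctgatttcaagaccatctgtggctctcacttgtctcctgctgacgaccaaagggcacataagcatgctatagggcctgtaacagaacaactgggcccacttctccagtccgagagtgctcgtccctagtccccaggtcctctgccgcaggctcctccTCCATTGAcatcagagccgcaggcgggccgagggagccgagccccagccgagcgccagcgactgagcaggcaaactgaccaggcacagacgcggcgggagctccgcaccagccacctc
Neither Camk1d window held an octamer. The Camk1 window held TCAATGGA once, on the strand opposite to the one printed, beginning 68 bases before the start and overlapping no other match. The single windows of Camk1g, Camkk1, Camkk2, Camk2b and Camk2d held none, and Camk4, Camk2a and Camk2g had no entry in the table. Of 32851 promoter windows in the mouse table, 1260 (3.84%) held an octamer. The GC content was 71.3% in the first and 48.7% in the second Camk1d window and 60.0% in that of Camk1, against a median of 52.7% over all windows.

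Cells were barcodes with at least 2000 UMIs and at least 5 UMIs of Reln, which gave 1003 control cells (median 6224 UMIs) and 390 knockout cells (median 6664 UMIs). Barcodes of 20 to 100 UMIs were taken as droplets without a cell, which carry the free RNA of the suspension, and numbered 29040 in the control (median 89 UMIs) and 75813 in the knockout (median 44 UMIs). Levels are CPM, counts scaled to a total of 1000000 UMIs outside mitochondrially encoded and ribosomal protein genes, of which cells held 6601724 and 2765943. No cell barcode and 565 droplet barcodes occurred in both libraries. The CR markers Reln (8176 CPM in control and 7873 CPM in knockout cells) and Trp73 (471 and 492 CPM) were abundant in both libraries. Cic itself stood at 58.9 CPM in control and 51.3 CPM in knockout cells, a ratio of 0.871 (0.714 to 1.06). The counts were taken near the 3′ end, and the sources used here do not say which exons are floxed. This ratio therefore does not check the deletion. The paper reports that in this knockout line CIC was lost from most but not all hippocampal CR cells. Cells of the knockout library can therefore include some that kept it.

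Camk1d, a CaMKI isoform and the kinase with most UMIs, stood at 691 CPM (671 to 711) in control cells and at 1257 CPM (1216 to 1300) in knockout cells. The gene (ENSMUSG00000039145) spans chr2:5293457-5714515 on the minus strand (GENCODE M21, GRCm38), and no other gene of the matrices overlapped it. Its ratio of knockout to control was 1.82 (1.74 to 1.90), or 0.86 on the log2 scale. These values rested on 4561 control and 3477 knockout UMIs. Control droplets held it at 2379 CPM (2315 to 2445) and knockout droplets at 4512 CPM (4436 to 4588), a ratio of 1.90 (1.84 to 1.96). Camk1d was thus higher in the knockout both in cells and in free RNA, with ratios whose intervals overlapped.

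**Figure D1:**
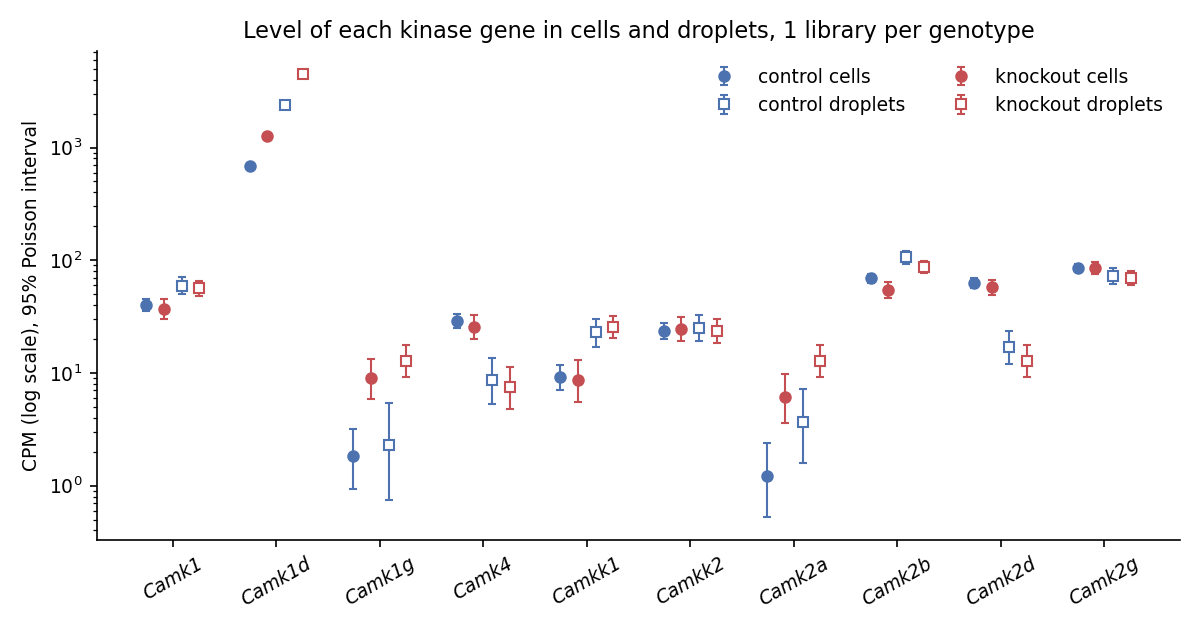
Level of the 10 kinase genes in CPM (log axis) in cells (filled circles) and droplets (open squares) of the control (blue) and knockout (red) library; bars are 95% Poisson intervals. Camk1d lies above the other 9 genes in every set, from 691 CPM in control cells to 4512 CPM in knockout droplets, while Camk1g and Camk2a lie lowest in control cells.

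Over all genes with at least 100 UMIs in cells of both libraries together, 2.73% were higher and 1.66% lower in the knockout by 1.5-fold or more. Of the 10 kinase genes 7 reached that minimum (Camk1, Camk1d, Camk4, Camkk2, Camk2b, Camk2d and Camk2g), of which 1 (Camk1d) was higher and 0 were lower. The median log2 ratio of these 7 was -0.12, beside 0.01 over all 9442 genes. In droplets, 3.81% of 7156 genes were higher and 1.72% lower, and of 6 kinase genes with enough UMIs 1 (Camk1d again) was higher and 0 were lower. Since ratios chose the genes, nothing is read from these counts. A higher ratio than that of Camk1d was held by 83 of 9442 genes in cells, of which 0 had more UMIs. In droplets 88 of 7156 genes held a higher ratio, of which 1 had more UMIs. Camk1d was among the genes chosen by ratio, so nothing is read from its place either.

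**Figure D2:**
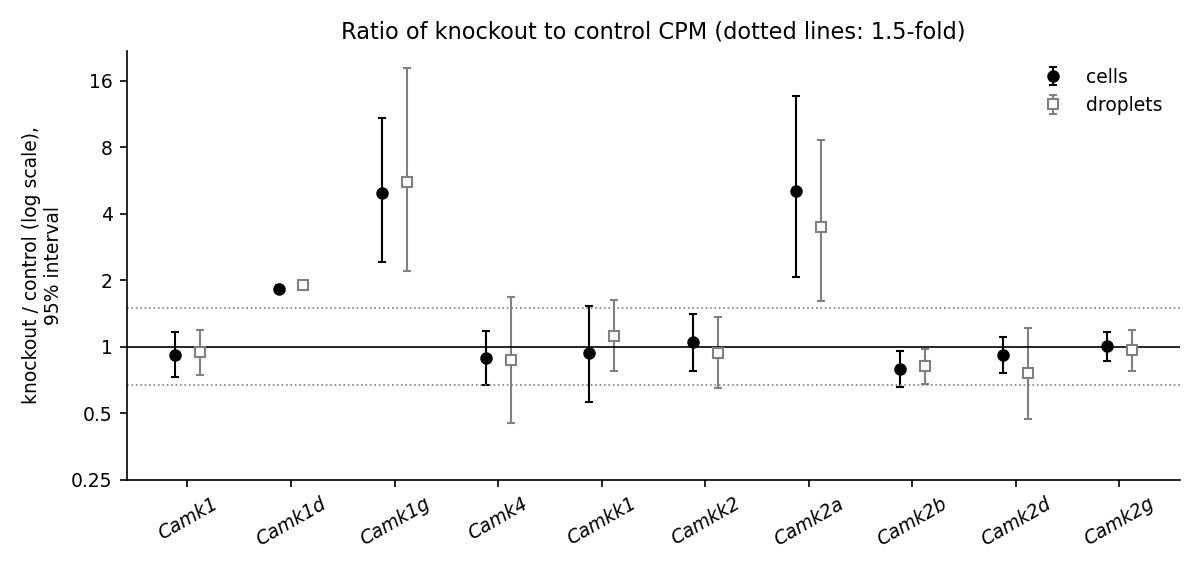
Ratio of knockout to control CPM (log axis) for each kinase gene in cells (black) and droplets (grey), with 95% intervals; dotted lines mark 1.5-fold in either direction. Camk1d sits at 1.82 and 1.90 with narrow intervals, Camk1g and Camk2a lie higher with wide ones, and the other 7 lie between 0.756 and 1.12.

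The rank of Camk1d among all genes by summed UMIs was 143 in control and 59 in knockout cells, and 25 in control and 10 in knockout droplets. It took 68.2% (67.0 to 69.3) of the UMIs of the 10 genes in control cells and 80.2% (79.0 to 81.4) in knockout cells. In droplets its share was 88.2% and 93.6%. All 10 genes together stood at 1013 CPM in control and 1567 CPM in knockout cells, a ratio of 1.55 (1.49 to 1.61). Without Camk1d the sums were 322 CPM and 309 CPM, a ratio of 0.960 (0.885 to 1.04).

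The Camk1d level varied widely among cells of 1 library. In control cells the median was 595 CPM, 10% of cells lay at or below 198 CPM and 10% at or above 1250 CPM, and the highest was 4071 CPM. The median knockout cell held 1169 CPM, with 494 CPM and 2150 CPM as the same limits and 5011 CPM as the highest. The distributions overlapped: 130 control cells (13.0%) were at or above the knockout median, and 58 knockout cells (14.9%) at or below the control median. No Camk1d UMI was seen in 44 control and 4 knockout cells.

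**Figure D3:**
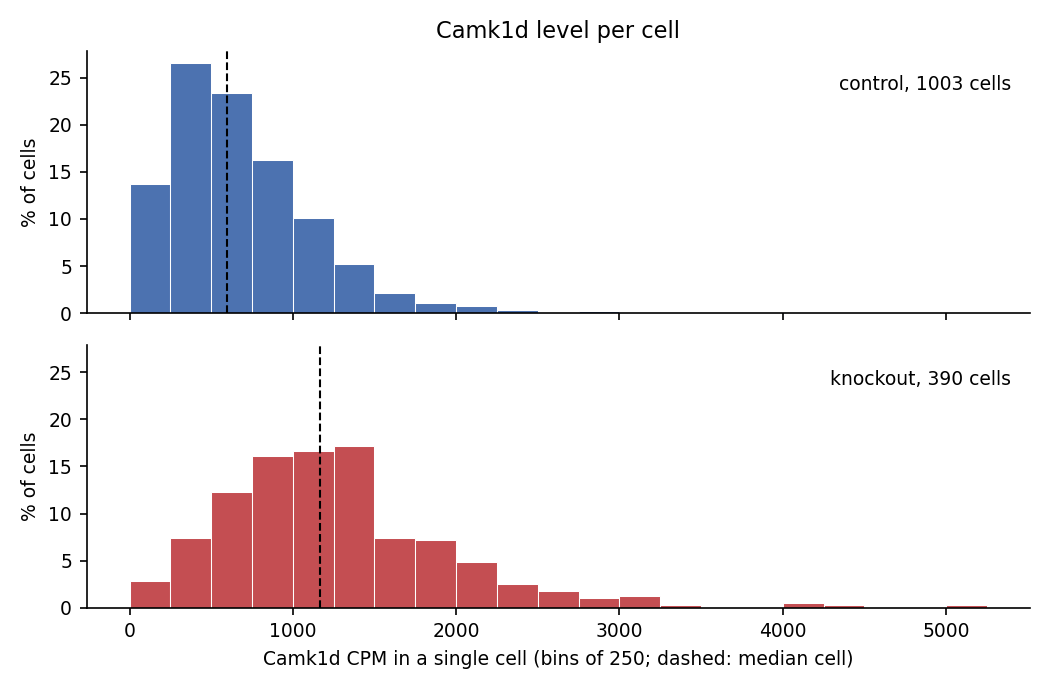
Percent of cells by Camk1d CPM of the single cell, in bins of 250 CPM, for 1003 control cells (top) and 390 knockout cells (bottom); dashed lines are the medians, 595 and 1169 CPM. The knockout distribution lies further to the right and overlaps that of the control. Counting error adds to both widths, since the median cell held 4 (control) and 8 (knockout) Camk1d UMIs.

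With every cell thinned to 2000 UMIs, 70.8% (67.9 to 73.6) of control and 86.4% (82.6 to 89.7) of knockout cells had a Camk1d UMI, and unthinned 95.6% and 99.0% did. Droplets had one in 16.1% and 16.2% at their much lower and unequal depths. From the droplets, 179 free Camk1d UMIs would be expected over all control cells, 3.93% of those counted, and 70.5 over all knockout cells, 2.03%. After subtraction of this amount for every gene the ratio was 1.84.

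Camk1d was higher in knockout cells in each kind of cell examined, all of which were splits of the same cells. Its ratio was 1.77 (1.67 to 1.87) in cells read as male (a Y-linked and no Xist UMI, 702 and 194 cells) and 1.88 (1.73 to 2.04) in cells read as female (at least 2 Xist and no Y-linked UMI, 223 and 175 cells). Among cells above their library's median of the summed early genes Fos, Fosb, Junb, Egr1, Npas4, Nr4a1, Nr4a3 and Arc the ratio was 1.78 (1.67 to 1.89), and in the other cells 1.86 (1.75 to 1.99). Between the sexes and between the early gene classes the intervals overlapped. With 1 female mouse in the control, sex could not be told apart from animal, here or in the sex ratios below. Cells with an Etv4 or Etv5 UMI, genes that CIC is known to repress, gave 1.83 (1.65 to 2.04) and cells without one 1.86 (1.77 to 1.97). Within the knockout, cells with such a UMI held 0.936 (0.875 to 1.00) of the Camk1d level of cells without one.

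The ratio differed more with the respiratory genes. In cells where nuclear genes of oxidative phosphorylation took 2% or more of the counted UMIs (78 control and 29 knockout cells), Camk1d stood at 1119 CPM (control) and 1510 CPM (knockout), a ratio of 1.35 (1.22 to 1.49). In the other 925 and 361 cells it stood at 624 CPM and 1215 CPM, a ratio of 1.95 (1.85 to 2.05). The intervals did not overlap, but with 1 library per genotype the difference was not tested. Cells of the first kind were also deeper, with medians of 13556 and 14508 UMIs against 6065 and 6410 UMIs, and 18 control and 10 knockout cells lay near the limit, between 1.8% and 2.2%. Against the other cells of their library, Camk1d was 1.79 times (1.67 to 1.93) as high in the control and 1.24 times (1.14 to 1.36) as high in the knockout.

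**Figure D4:**
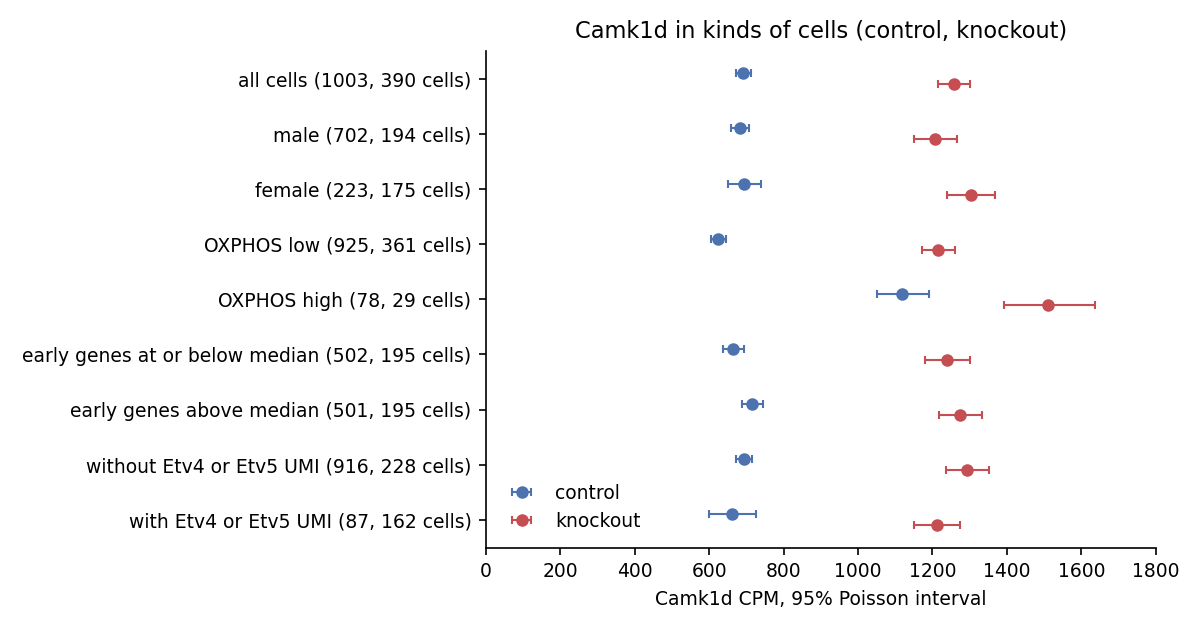
Camk1d CPM in kinds of cells of the control (blue) and knockout (red) library with 95% Poisson intervals; OXPHOS high means 2% or more of counted UMIs in nuclear genes of oxidative phosphorylation. The red point lies to the right of the blue in each row, and the gap is narrowest in OXPHOS-high cells, 1119 against 1510 CPM.

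The genes beside Camk1d were looked at after its ratio was known. Of 19 genes of the matrices within 500 kb on GRCm38, 7 had at least 100 UMIs in cells. Cdc123, 79.8 kb away, had a ratio of 1.24 (1.03 to 1.49). Sec61a2 stood at 1.05 (0.898 to 1.23), Nudt5 at 0.915 (0.700 to 1.18), Upf2 at 0.873 (0.737 to 1.03) and Dhtkd1 at 0.805 (0.513 to 1.23). On the other side Phyh had 1.34 (1.003 to 1.77) and Sephs1 1.41 (1.003 to 1.96). The intervals of Cdc123, Phyh and Sephs1 left out 1, and those of the others included it. None of the 7 reached 1.5-fold, beside 2.73% of all genes higher and 1.66% lower by that much. A count over 7 genes is too small to be set apart from these shares. With fewer UMIs, Bend7 (13 control and 11 knockout UMIs) had a ratio of 2.02 (0.819 to 4.89) and Proser2 (6 and 5 UMIs) one of 1.99 (0.480 to 7.82).

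Camk1, the founding CaMKI isoform, stood at 40.4 CPM (35.7 to 45.6) in control and 37.2 CPM (30.4 to 45.2) in knockout cells, a ratio of 0.921 (0.726 to 1.16). In droplets it was at 59.7 CPM and 56.3 CPM. Its end overlaps 945 bases of Ogg1 on the opposite strand, which held 25 control and 5 knockout UMIs, and whether the counting used strand is not given in the sources used here. Camk1 was higher in cells rich in respiratory transcripts than in the others in both libraries, 1.51 times (1.09 to 2.06) in the control and 2.24 times (1.40 to 3.50) in the knockout. It was also higher in cells above the early gene median, 1.32 times (1.03 to 1.70) in the control and 1.57 times (1.04 to 2.41) in the knockout. Without the 1 knockout cell with most Camk1 UMIs the last value was 1.49 (0.977 to 2.30).

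Camk1g, the membrane-anchored CaMKI isoform, was rare. It had 12 UMIs in 12 control cells (1.82 CPM, 0.939 to 3.18) and 25 UMIs in 20 knockout cells (9.04 CPM, 5.85 to 13.3). The ratio was 4.97 (2.41 to 10.9). In droplets it had 5 control UMIs (2.29 CPM) and 39 knockout UMIs (12.8 CPM), a ratio of 5.59 (2.20 to 18.2). Camk1g was therefore higher in the knockout in both sets, from 37 UMIs in cells and 44 in droplets, below the minimum used for the counts above.

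Camk4, which phosphorylates CREB in the nucleus, stood at 28.8 CPM (24.8 to 33.2) in control and 25.7 CPM (20.0 to 32.4) in knockout cells, a ratio of 0.892 (0.669 to 1.18). The direction differed with sex: the ratio was 0.591 (0.377 to 0.895) in male and 1.45 (0.894 to 2.37) in female cells, a difference that was not tested. All control female cells came from 1 mouse, so sex could not be told apart from animal. A single control cell, read as male, held 15 of the 190 control UMIs. The ratio of knockout to control in male cells without that cell was not computed. Control female cells held 0.726 (0.482 to 1.06) of the Camk4 level of male cells, and 0.804 (0.532 to 1.18) without that cell. In the control, Camk4 was 2.52 times (1.75 to 3.57) as high in cells with an Etv4 or Etv5 UMI as in those without, and 1.66 times (1.06 to 2.51) without that cell. In the knockout the same ratio was 1.53 (0.931 to 2.52).

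The upstream kinases together stood at 32.7 CPM in control and 33.3 CPM in knockout cells, a ratio of 1.02 (0.788 to 1.30). Camkk2, which also phosphorylates AMP-activated kinase, was at 23.5 CPM and 24.6 CPM, a ratio of 1.05 (0.775 to 1.40). Camkk1 was at 9.24 CPM and 8.68 CPM, from 61 and 24 UMIs, a ratio of 0.939 (0.560 to 1.53). By sex the Camkk1 ratio was 0.511 (0.194 to 1.14) in male and 1.65 (0.744 to 3.79) in female cells, from 7 and 17 knockout UMIs. Neither kinase showed a difference larger than its counting error.

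The 4 CaMKII genes summed to 219 CPM in control and 204 CPM in knockout cells, a ratio of 0.934 (0.846 to 1.03). Camk2g, the gamma subunit, was at 85.6 CPM (78.7 to 92.9) and 85.7 CPM (75.1 to 97.3). Camk2d, the delta subunit, known best from the heart, was at 62.9 CPM and 57.5 CPM, a ratio of 0.914 (0.757 to 1.10). Camk2b, the actin-binding beta subunit, was at 69.1 CPM (62.9 to 75.7) and 55.0 CPM (46.6 to 64.4). Its ratio of 0.796 (0.658 to 0.958) left out 1 but did not reach 1.5-fold, and in droplets it was 0.813 (0.679 to 0.974). In droplets of 51 to 100 UMIs in both libraries it was 0.952 (0.754 to 1.20), which included 1. In female cells the Camk2b ratio was 0.648 (0.449 to 0.926) and in male cells 0.922 (0.725 to 1.16), with overlapping intervals.

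Camk2a, the alpha subunit and the main CaMKII of forebrain excitatory neurons, was the rarest in control cells. It had 8 UMIs in 8 control cells (1.21 CPM, 0.523 to 2.39) and 17 UMIs in 6 knockout cells (6.15 CPM, 3.58 to 9.84), with up to 6 in 1 cell. The ratio was 5.07 (2.07 to 13.6) in cells and 3.50 (1.61 to 8.66) in droplets. The interval in cells takes UMIs as independent, although the 17 knockout UMIs lay in 6 cells. A Camk2a UMI was seen in 0.798% (0.345 to 1.57) of control and 1.54% (0.567 to 3.32) of knockout cells. With cells thinned to equal depth the shares were 0.598% (0.220 to 1.30) and 0.256% (0.00649 to 1.42), from 6 and 1 cells. Both pairs of intervals overlapped. The direction reversed in the thinned shares, but these came from 1 random draw of few UMIs. Nothing is read from the reversal. Without thinning, all 6 knockout cells with a Camk2a UMI were above the early gene median and 5 had an Etv4 or Etv5 UMI. In 3 of these 6 cells, and in 3 of the 8 control cells, a marker of granule or pyramidal neurons had a UMI. The 6 knockout cells had a median of 9942.5 UMIs, beside 6664 over all knockout cells. For the 8 control cells it was 6727.5, beside 6224. Of all 390 knockout cells 162 had an Etv4 or Etv5 UMI. The share of cells of like depth with such UMIs was not computed, so nothing is read from these counts. The 8 markers of granule and pyramidal neurons summed to 36.1 CPM in control and 50.6 CPM in knockout cells, led by Wfs1 and Dsp. In droplets they summed to 24.3 CPM and 35.2 CPM. Prox1 stood at 6.66 CPM in control and 7.23 CPM in knockout cells, above 1.84 CPM and 2.63 CPM in droplets. Neurod6 and Neurod2 were at 0 in cells of both libraries. The part of the granule and pyramidal neuron markers in the Camk2a values was not tested.

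Levels of different genes were also set per kb of gene span, introns included. UMIs count each captured molecule once and were read near the 3′ end, so they need not grow with span. The order per kb depends on this division and is not read as an order of abundance. On that scale the order in control cells was Camk1 (4.10 CPM per kb), Camk1d (1.64), Camk2g (1.45), Camk2b (0.714), Camkk2 (0.487), Camkk1 (0.401), Camk2d (0.251), Camk4 (0.112), Camk1g (0.0759) and Camk2a (0.0194). Among neighbours in this order, only the intervals of Camkk2 with Camkk1 and of Camk4 with Camk1g overlapped. In knockout cells Camk1 was at 3.78 CPM per kb and Camk1d at 2.99, with overlapping intervals, and Camk2g followed at 1.45. In CPM without length Camk1d came first in both libraries.

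Cells and droplets of the same library differed in their mix of these transcripts. Over all genes with at least 100 UMIs, 40.3% were higher and 32.7% lower in control cells than in control droplets by 1.5-fold or more, and 37.2% and 35.8% in the knockout. Of 8 kinase genes with enough UMIs in the control, 2 were higher and 3 lower in cells, and of 7 in the knockout 1 was higher and 4 lower. Counts over 8 and 7 genes are too small to be set apart from these background shares. Camk2d was 3.70 times (2.64 to 5.33) as high in control cells as in droplets and 4.48 times (3.14 to 6.53) in the knockout. Camk4 was 3.30 times (2.06 to 5.60) and 3.39 times (2.09 to 5.69) as high.

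Camk1d stood on the other side, at 0.290 (0.279 to 0.302) of its droplet level in control cells and 0.279 (0.268 to 0.289) in knockout cells. Camkk1 was at 0.403 and 0.338, Camk2b at 0.649 and 0.635 and Camk1 at 0.678 and 0.662. Camkk2 (0.930 and 1.04) and Camk2g (1.18 and 1.23) were near their droplet levels. Intervals of the libraries overlapped for each of the 10 genes. Summed without Camk1d, the kinases stood at 1.01 and 1.00 of their droplet level.

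**Figure D5:**
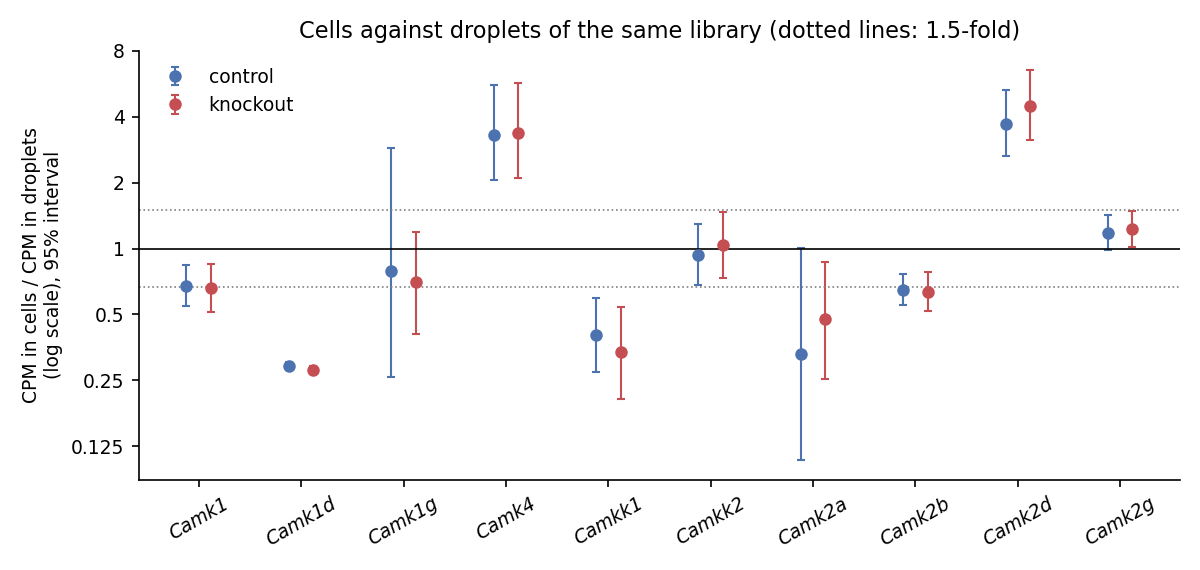
CPM in cells over CPM in droplets of the same library (log axis) for each kinase gene, control in blue and knockout in red, with 95% intervals; dotted lines mark 1.5-fold. Camk4 and Camk2d lie above 3 in both libraries, Camk1d lies near 0.28, and the libraries overlap for each gene.

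The droplets of the libraries differed in depth, since 54440 of the knockout droplets but only 721 of the control droplets had 20 to 50 UMIs. Among droplets of 51 to 100 UMIs the knockout over control ratio of Camk1d was 1.84 (1.77 to 1.91). In that range mitochondrially encoded genes were 1.92 times (1.87 to 1.96) as high in the knockout. Above 100 and up to 200 UMIs the Camk1d ratio was 1.92 (1.68 to 2.19), but there 48325 control barcodes stood against 469 knockout barcodes, in which Reln was 2.68 times and mitochondrially encoded genes 8.13 times as high, so the barcodes were not alike. In barcodes of 20 to 50 UMIs it was 4.18 (2.78 to 6.60), where the control had 23 Camk1d UMIs (1096 CPM) and Reln at 4909 CPM, against 919 CPM in control droplets of 51 to 100 UMIs.

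Other genes of the calcium and calmodulin pathway were taken as 7 lists of 33 genes in all, of which 30 had at least 100 UMIs in cells. Of these, 0 were higher and 0 lower in the knockout by 1.5-fold, beside 2.73% and 1.66% over all genes. A count over 30 genes is too small to be set apart from these shares. The ratios of the 30 ran from 0.681 to 1.21 with a median of 0.962, beside 1.00 over all genes. The 3 calmodulin genes, whose product activates all the kinases, summed to 1254 CPM in control and 1214 CPM in knockout cells. The 5 phosphatase genes, which hold calcineurin subunits and the phosphatases that switch CaM kinases off, summed to 1150 CPM and 1053 CPM. The 12 nuclear targets, among them CREB family, CRTC, class II histone deacetylase and MEF2 genes, summed to 1204 CPM and 1121 CPM. The 2 catalytic subunits of AMP-activated kinase, a target of Camkk2, summed to 46.4 CPM and 44.8 CPM, and the 3 synaptic partners of CaMKII to 189 CPM and 197 CPM. The 2 CaMKII inhibitors summed to 38.9 CPM and 47.0 CPM. The 6 other calmodulin-regulated kinases and kinase-like proteins, Pnck among them, summed to 383 CPM and 364 CPM.

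At the extremes, chosen after their values were seen, Hdac9, a class II histone deacetylase that CaM kinases are known to phosphorylate, stood at 62.1 CPM in control and 42.3 CPM in knockout cells, a ratio of 0.681 (0.550 to 0.838). Creb1, a transcription factor and target of CaMKIV, stood at 92.7 CPM and 111.7 CPM, a ratio of 1.21 (1.05 to 1.38). Both stayed within 1.5-fold. Of the 3 genes below the minimum, Mylk, the smooth muscle myosin light chain kinase, had 20 UMIs in control cells (3.03 CPM) and 22 in knockout cells (7.95 CPM), a ratio of 2.63 (1.37 to 5.07), while in droplets it stood at 7.34 CPM and 4.61 CPM.

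Marker lists of other hippocampal cell types were low in cells of both libraries. The GABAergic markers summed to 2.88 CPM in control and 1.81 CPM in knockout cells, those of oligodendrocytes to 13.8 CPM and 17.0 CPM, of microglia to 36.5 CPM and 31.8 CPM, of endothelial cells to 33.8 CPM and 29.3 CPM, and of astrocytes to 100.4 CPM and 88.9 CPM, mostly from Slc1a2. Pecam1 held most of the endothelial sum in cells, at 31.2 CPM in control and 28.6 CPM in knockout cells. In droplets the oligodendrocyte list summed to 51.4 CPM (control) and 83.9 CPM (knockout), the endothelial list to 26.6 CPM and 61.2 CPM. The GABAergic list summed there to 8.26 CPM and 7.57 CPM and the astrocyte list to 67.0 CPM and 98.4 CPM. The microglial list, at 12.4 CPM and 16.8 CPM, was lower in droplets than in cells of both libraries, through P2ry12 and Cx3cr1. P2ry12 stood at 22.1 CPM in control and 22.8 CPM in knockout cells, against 1.38 CPM and 2.63 CPM in droplets. C1qa and Csf1r went the other way. They stood at 0.151 CPM and 0.909 CPM in control cells and at 0 in knockout cells, below their droplet levels in both libraries. Of the 8 CR markers Calb2, named after its value was seen, alone passed 1.5-fold between the genotypes, at 1.54 (1.36 to 1.74). Over all genes 2.73% were higher by that much. Barcodes with at least 2000 UMIs but fewer than 5 Reln UMIs numbered 8 and 16. Camk1d stood at 2639 CPM and 2997 CPM in these barcodes, a ratio of 1.14 (0.871 to 1.49), which included 1. These barcodes were not among the cells counted here, so they had no part in the Camk1d ratio. With the limit lowered to 1 Reln UMI that ratio was 1.83.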

How the data were processed

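The authors deposited raw counts of UMIs per gene and barcode for every barcode, made by 10x Genomics 3′ chemistry and Cell Ranger, without normalization or cell calling. The submitters' processing notes name Cell Ranger 8.0.1 and mm39, whereas the study's methods name an earlier version and an mm10 reference. Whether intronic reads or strand were used is not given in the sources used here. No coordinates were in the matrices, and positions were taken by gene identifier from GENCODE M21. The totals were 16336796 UMIs in the control and 6777071 in the knockout library.

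The 10 genes, the gene lists and the rules were chosen with earlier results of these data known. Counts were summed over cells (at least 2000 UMIs and 5 Reln UMIs) or droplets (20 to 100 UMIs), scaled to the UMIs left after removing mt-, Rpl, Rps and Mrp genes, and compared as ratios with exact 95% intervals for 2 Poisson counts. Shares have exact Clopper-Pearson intervals. A count of 3 UMIs equals 0.454 CPM in control and 1.08 CPM in knockout cells. Counts of genes past 1.5-fold used genes with at least 100 UMIs. Cells are not replicates, so no test, p-value or standard error was made. Doublets were not called. Sexes were read from Xist, Uty, Ddx3y, Eif2s3y and Kdm5d. The text names every kinase gene and Reln, Trp73 and Cic. Genes of the pathway lists with at least 100 UMIs were to be named if past 1.5-fold, and there were 0. Of the marker lists only some leading genes are named, and other genes were chosen after their values were seen. The code for ratios, intervals, calls and thinning was checked on simulated counts that held counting error only. Python 3.11.15, numpy 2.4.6, scipy 1.17.1, pandas 2.3.3 and matplotlib 3.10.9 were used. Alternatives covered the limits for cells and droplets, scaling, free RNA, sex, kinds of cells, the minimum and the fold.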

Additional observations from a re-analysis of the deposited data

Results flagged for a closer look

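The comparisons used barcodes of at least 2000 or of 20 to 100 UMIs. In the barcodes between these limits, above 100 and below 2000 UMIs, the 10 kinase genes together stood at 2728 CPM over 49610 control barcodes and at 6004 CPM over 606 knockout barcodes, above the limit that a count of 0 allows. Camk1d made up most of both, at 2411 CPM and 5556 CPM. Of the control barcodes 48325 had up to 200 UMIs and held Camk1d at 2387 CPM, beside 2379 CPM in the control droplets, whose UMI counts run on past 100. In the knockout 469 barcodes had up to 200 UMIs, with Reln 2.68 times and mitochondrially encoded genes 8.13 times as high as in those of the control. The barcodes were thus not alike, and nothing is read from differences between the libraries in this range.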

How the results depend on the processing

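With 1 library per genotype no replicate could be left out. No paired analysis was possible because each genotype had 1 library. Across 13 alternatives for cells, scaling and free RNA, the Camk1d ratio lay between 1.77 (male cells alone) and 1.95 (without cells rich in respiratory transcripts), that of Camk1g between 4.02 and 5.45 and that of Camk2a between 3.39 and 8.17. The count of kinases higher by 1.5-fold was 1 in each of the 13 and 2 with a minimum of 30 UMIs, which admitted Camk1g. The count of those lower was 1 in male cells alone (Camk4), 1 in female cells alone (Camk2b) and 1 at 1.25-fold (Camk2b), and 0 in the others. Camk4 moved to 0.591 in male and 1.45 in female cells, and Camkk1 to 0.511 and 1.65. The cause of these moves was not tested. With droplets of 20 to 50 UMIs, the summed kinases in control cells stood at 0.733 of their droplet level instead of 0.376, from 721 droplets. For droplets of 51 to 100 UMIs and for the knockout the value moved by less than its counting interval. Droplets of 51 to 100 UMIs in both libraries, and control droplets of 51 to 200 UMIs, were chosen after seeing the data and left each of the 10 droplet ratios within its interval. Depth limits Camk1g, Camk2a and Camkk1, each under 100 UMIs in cells.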
